A study of Homo sapiens with 6 samples.

Results

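The genes described here are 10 whose products restrain mitogen-activated protein kinase (MAPK) signaling. Expression of 6 dual-specificity phosphatases (DUSP1, DUSP2, DUSP4, DUSP5, DUSP6 and DUSP10), of the Sprouty genes SPRY1 and SPRY2 and of the Sprouty-related genes SPRED1 and SPRED2 was measured in MM.1S cells after knockdown of PRKCN. They were picked by symbol as known feedback regulators, and all 10 were found among the 21850 genes of the count table. MM.1S is a human multiple myeloma line. Both groups were infected with a lentivirus and collected at day 3, with 3 libraries of cells labelled wild type that carry a scramble hairpin (shNT) and 3 of cells that carry a hairpin against PRKCN (shPRKCN). The hairpin backbone marks cells with GFP. The methods list more than 1 PRKCN hairpin, the labels do not say in words which was used, and nothing states whether the libraries of a group came from separate cultures, so that the p-values measure only the spread between these libraries.

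Extracellular signal-regulated kinase (ERK), the last kinase of the RAS, RAF and MEK cascade, switches on genes that shut the cascade down again. DUSP phosphatases remove phosphate from the activation loop of MAPKs, Sprouty proteins act between receptors and RAS or RAF, and SPRED proteins bring neurofibromin, which turns RAS off, to the membrane. Several of these transcripts are short-lived, so that their level is widely used as a readout of recent pathway output.

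Total counts ran from 35625564 to 37730003 per library. PRKCN, listed under its current symbol PRKD3, fell by 1.29 on the log2 scale (SE 0.034) and did not overlap between the groups. Of 10 plasma cell markers, all were listed, and their summed level was 9332 to 9457 CPM (counts scaled by the library total and its TMM factor, a correction for composition) in shNT and 8063 to 8183 CPM in shPRKCN libraries, with 4 called lower. Most of that sum was JCHAIN, whose mean level hardly changed, so the sum hides larger relative changes of other markers. Markers of stromal cells (4 of 6 listed) summed to at most 1.47 CPM and those of erythroid cells and platelets (1 of 5 listed) to at most 3.87 CPM, and CD3D, CD3G, CD14, LYZ, MS4A1 and PAX5 each averaged at most 0.142 CPM in either group. The T and NK cell list (6 of 7 listed) went from between 11.1 and 12.7 CPM to between 27.7 and 31.6 CPM, nearly all of it CD3E. The monocyte list (4 of 6 listed), nearly all of it CD68, went from between 15.8 and 18.7 CPM to between 10.4 and 12.8 CPM, and the B cell list (5 of 6 listed), mostly CD79B, from between 21.5 and 24.8 CPM to between 36.1 and 39.6 CPM. The part of these shifts in the results was not tested. In RNA of whole cultures, fewer cells expressing a gene and less RNA per cell cannot be told apart.

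Promoters from RefSeq's table (GRCh38.p14, 250 bases before to 50 bases after each annotated start) are shown for DUSP1 and SPRED2. Among the 8 members whose promoters were searched, DUSP1 holds the only full cAMP response element and SPRED2 the only matches to the AP-1 pattern TGANTCA. SPRY1, the other member called lower, held only GC boxes. Each is written 5′ to 3′ on the strand of the gene. Capitals mark matches to the cAMP response element TGACGTCA or its half-site TGACG, the AP-1 pattern TGANTCA, the E-box CACGTG and the TATA box TATAAA, searched on both strands. In DUSP1 the full element contains a half-site on each strand, and another half-site overlaps the E-box.
DUSP1, chr5:172771146-172771445, minus strand: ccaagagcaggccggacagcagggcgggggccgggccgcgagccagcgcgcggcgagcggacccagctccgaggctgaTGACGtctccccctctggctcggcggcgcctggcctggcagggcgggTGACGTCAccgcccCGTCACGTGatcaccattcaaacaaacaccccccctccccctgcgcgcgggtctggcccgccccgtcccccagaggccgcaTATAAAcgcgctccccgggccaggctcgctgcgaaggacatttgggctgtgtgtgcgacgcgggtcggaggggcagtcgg
SPRED2 upstream start, chr2:65432550-65432849, minus strand: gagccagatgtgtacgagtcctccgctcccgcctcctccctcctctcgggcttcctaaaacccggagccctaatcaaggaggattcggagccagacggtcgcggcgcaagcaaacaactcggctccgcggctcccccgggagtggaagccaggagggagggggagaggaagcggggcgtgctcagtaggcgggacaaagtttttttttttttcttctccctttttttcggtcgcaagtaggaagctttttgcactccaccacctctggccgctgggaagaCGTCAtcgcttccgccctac
SPRED2 downstream start, chr2:65366729-65367028, minus strand: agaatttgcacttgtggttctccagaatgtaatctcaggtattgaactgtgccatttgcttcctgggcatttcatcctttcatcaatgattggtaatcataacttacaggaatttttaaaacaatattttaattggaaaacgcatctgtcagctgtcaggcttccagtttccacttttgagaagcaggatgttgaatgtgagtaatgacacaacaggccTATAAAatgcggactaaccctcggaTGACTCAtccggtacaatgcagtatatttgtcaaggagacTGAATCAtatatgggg
The DUSP1 promoter held the full cAMP response element 125 bases before the start and a TATA box 30 bases before it. Only 1.85% of the 35116 promoters of the table hold that element and 11.5% hold that TATA box. The downstream SPRED2 promoter held a TATA box 31 bases before the start. It also held a pair of matches to the AP-1 pattern, TGACTCA 6 bases before the start and TGAATCA 34 bases after it. That pattern, TGANTCA, leaves its middle base free, and 7.71% of all promoters hold it at least once. The upstream SPRED2 promoter held a single half-site of the cAMP response element, present in 24.6% of promoters. These are matches of letters, and the counts do not tell which start was used.

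DUSP4 was left out of the promoter search and DUSP5 had no entry. The other 8 members had 13 promoters. Among them, the full element and the E-box, TATA and AP-1 matches fell on 3 genes, DUSP1 and SPRED2 as above and DUSP2, which held an E-box 113 bases before its start (7.26% of all promoters hold one). None of the 13 promoters held the ETS site CCGGAAGT (4.14% of all promoters), the CArG box bound by SRF (1.29%) or a kB site of NF-κB (11.3%). The GC box GGGCGG, held by 45.0% of promoters, was found in DUSP1, DUSP2, DUSP10, SPRY1, SPRY2, SPRED1 and SPRED2. Half-sites of the cAMP response element were also found in DUSP10 and SPRY2. The DUSP6 promoter, the first of the SPRY1 promoters and the second of the SPRY2 promoters held none of the sites searched.

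**Figure D1:**
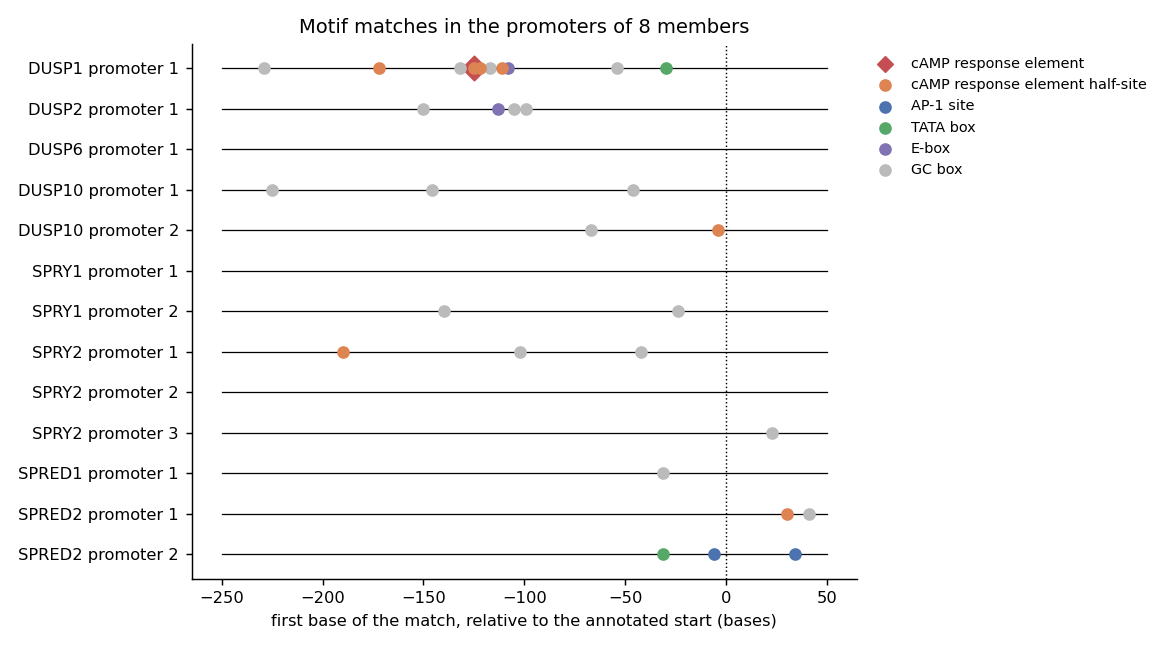
Positions of motif matches on the x axis, in bases from the annotated start (dotted line), for each of the 13 promoters of 8 members. The DUSP1 promoter carries the only full cAMP response element, 125 bases before the start, and the downstream SPRED2 promoter carries the matches to the AP-1 pattern.

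Counts were compared with edgeR's quasi-likelihood test over 13971 genes with enough reads, with Benjamini-Hochberg (BH) adjustment over all of them. A call needed an adjusted p under 0.05 together with a change beyond 0.58 on the log2 scale, the limits the study's methods give. Of the members 9 were tested, and SPRY2 was too low. DUSP1, SPRY1 and SPRED2 were called lower in shPRKCN cells, and no member was called higher, where 10.6% of all tested genes were called lower and 6.15% higher. By the adjusted p alone 3 members were lower (27.8% of all tested genes) and 4 were higher, namely DUSP2, DUSP5, DUSP10 and SPRED1 (26.5% of all tested genes). The median log2 fold change of the 9 was 0.074, against 0.0012 over all tested genes, and the median size regardless of sign was 0.44, against 0.25. With 3 libraries against 3, a 2-sided exact permutation test of a single gene cannot go below p = 0.1, so that the calls rest on the fit across genes.

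**Figure D2:**
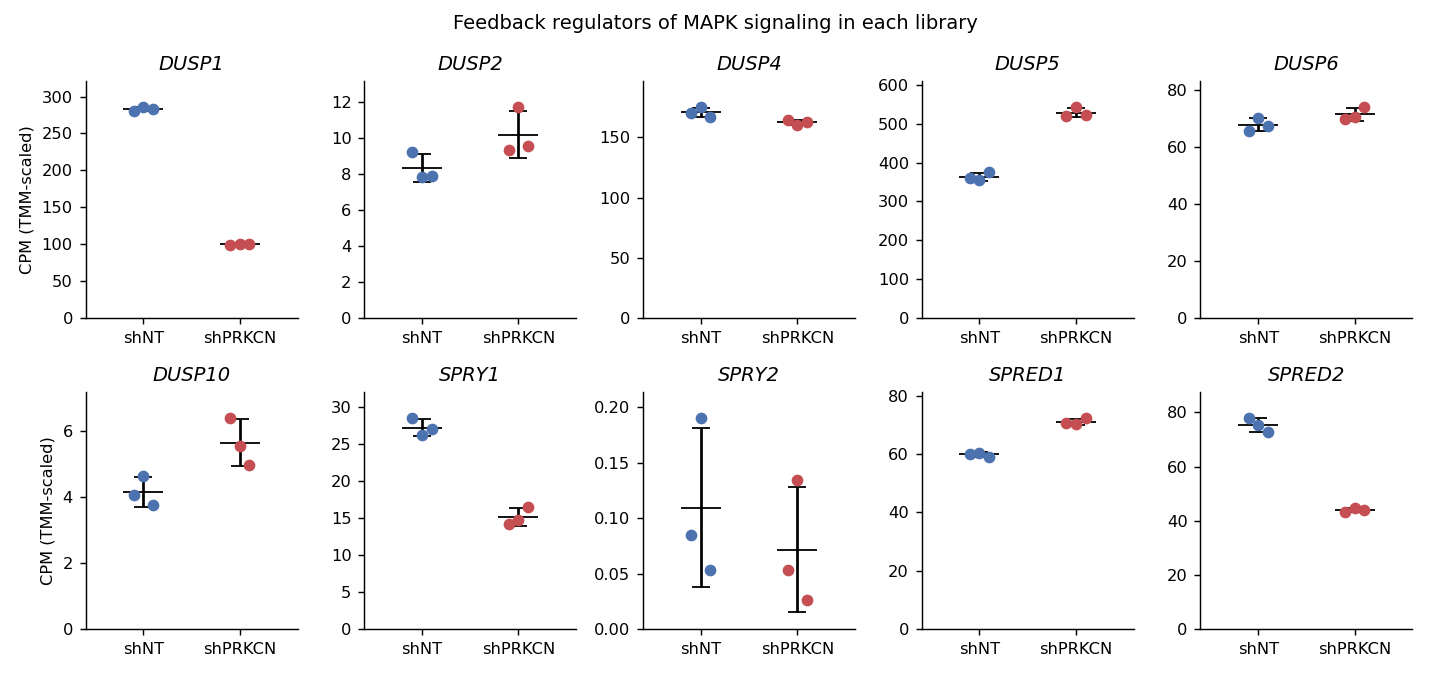
CPM (TMM-scaled) on the y axis for each member, with 1 point per library, shNT in blue and shPRKCN in red, and the mean and SD (n = 3) in black. DUSP1, SPRY1 and SPRED2 drop to separate lower levels, DUSP5 and SPRED1 lie higher, and SPRY2 stays under 0.2 CPM in every library.

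DUSP1 showed the largest change of the members. It encodes MKP-1, a nuclear phosphatase of JNK, p38 and ERK that is induced within minutes by stress and growth factors, and it lies at chr5:172768096-172771195 (GRCh38.p14). Its level was 280, 285 and 283 CPM in shNT libraries 1 to 3 and 99.2, 100.3 and 100.1 CPM in shPRKCN libraries 1 to 3. The 3 knockdown libraries lay within about 1 CPM of each other and far below every control. DUSP1 fell by 1.50 on the log2 scale (SE 0.037, edgeR BH-adjusted p = 5.9e-45), which left 35.3% of the control level. The fall stayed between −1.51 and −1.46 over 15 alternative settings, and 97.6% of all tested genes changed less in size.

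SPRY1 encodes a Sprouty protein, an inhibitor of growth factor signaling ahead of RAS and RAF, and lies at chr4:123396795-123403760. It was counted 1007, 963 and 1010 times in shNT libraries and 531, 549 and 627 times in shPRKCN libraries, equal to 27.2 ± 1.18 and 15.2 ± 1.20 CPM (SD, n = 3 each). Every knockdown library was lower than every control. SPRY1 fell by 0.84 on the log2 scale (SE 0.072, edgeR BH-adjusted p = 2.0e-16), to 55.7% of the control. Its relative SPRY2, at chr13:80335976-80341126, had 3, 7 and 2 counts in shNT and 2, 5 and 1 in shPRKCN libraries. That is at or near the floor of 3 counts in both groups, so no fold change is given and a difference was not detectable at this depth.

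The SPRED genes went opposite ways. SPRED2, at chr2:65307175-65432599, measured 77.9, 75.4 and 72.6 CPM in shNT libraries and 43.3, 44.7 and 43.8 CPM in shPRKCN libraries. SPRED1, at chr15:38252836-38357249, measured 60.1, 60.3 and 59.0 CPM in shNT libraries and 70.5, 70.2 and 72.3 CPM in shPRKCN libraries. Neither gene overlapped between the groups. SPRED2 fell by 0.78 on the log2 scale (SE 0.048, edgeR BH-adjusted p = 6.0e-23), to 58.4% of the control. SPRED1 rose by 0.25 on the log2 scale (SE 0.046, edgeR BH-adjusted p = 4.5e-06), which is 18.7% above the control and under the fold limit. Both encode membrane adaptors that bind neurofibromin. On the FPKM scale, which divides by gene length, the level of SPRED1 over that of SPRED2 was 0.541 to 0.570 in shNT and 1.10 to 1.16 in shPRKCN libraries, so that the more abundant SPRED transcript was SPRED2 in every control and SPRED1 in every knockdown library.

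DUSP5, a nuclear phosphatase specific for ERK, was the most abundant member and the one that rose most. It lies at chr10:110497907-110511533. Its counts were 12735, 13066 and 14053 in shNT libraries and 19437, 20145 and 19833 in shPRKCN libraries, and the groups stood well apart. The level went from 364 ± 10.4 to 528 ± 11.8 CPM (SD, n = 3 each), a log2 fold change of 0.54 (SE 0.034, 95% interval 0.47 to 0.61, edgeR BH-adjusted p = 1.1e-22). This rise of 45.2% lay just under the fold limit, and it stayed between 0.52 and 0.56 over the 15 alternatives, so that no setting with the limit called it. The interval itself includes the limit.

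DUSP10 and DUSP2 were low and less certain. DUSP10, also called MKP-5, acts mainly on JNK and p38 rather than ERK and lies at chr1:221701424-221742089. It had 144, 171 and 141 counts in shNT and 239, 207 and 189 in shPRKCN libraries. All knockdown libraries were above all controls, but the spread was wide. Its log2 fold change was 0.44 (SE 0.145, edgeR BH-adjusted p = 0.0081), and without shPRKCN 1 it was 0.34 (edgeR BH-adjusted p = 0.070). DUSP2, a nuclear phosphatase found chiefly in blood cells, lies at chr2:96143169-96145440 and had 326, 289 and 295 counts in shNT and 348, 435 and 363 in shPRKCN libraries. Its lowest knockdown library, at 9.32 CPM, was barely above the highest control, at 9.23 CPM. Its log2 fold change was 0.29 (SE 0.109, edgeR BH-adjusted p = 0.019). The adjusted p of DUSP2 was 0.070 without shNT 2, 0.075 without shNT 3 and 0.201 without shPRKCN 2 in the same edgeR test, with a log2 fold change of 0.18 in the last.

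DUSP4 and DUSP6 did not pass the test. DUSP4, a nuclear phosphatase of ERK and JNK at chr8:29333064-29350684, measured 170, 175 and 167 CPM in shNT and 165, 160 and 163 CPM in shPRKCN libraries. The knockdown libraries were all slightly lower, with a log2 fold change of −0.071 (95% interval −0.14 to 0.0029, edgeR BH-adjusted p = 0.0998). DUSP6, the cytoplasmic phosphatase of ERK at chr12:89347235-89352501 whose transcript often serves as a readout of ERK activity, measured 65.9, 70.4 and 67.6 CPM in shNT and 69.9, 70.7 and 74.0 CPM in shPRKCN libraries. The groups overlapped, with a log2 fold change of 0.074 (95% interval −0.017 to 0.17, edgeR BH-adjusted p = 0.169). Both intervals lie within the fold limit. Neither gene passed 0.05 in any of the 15 alternatives.

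DUSP1, SPRY1, SPRED2 and DUSP4 were lower in all 3 knockdown libraries than in any control, and DUSP2, DUSP5, DUSP10 and SPRED1 were higher in all 3. Over all tested genes the groups did not overlap in 29.8% on the lower side and in 29.0% on the higher side.

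**Figure D3:**
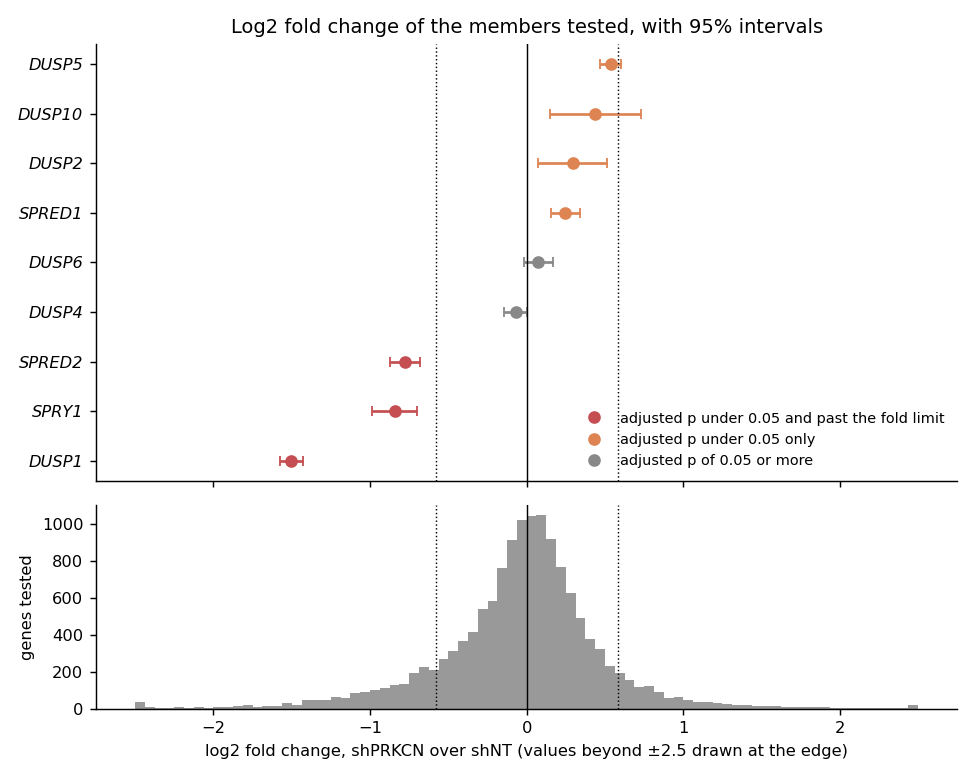
Log2 fold change, shPRKCN over shNT, on the x axis for the 9 members tested (top, points with 95% intervals, colored by call) above the number of genes at each value over all 13971 tested (bottom). Dotted lines mark the fold limit of 0.58 in both directions; DUSP1 lies far to the left at −1.50, and DUSP5 at 0.54 stops short of the limit.

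Per length, the members spanned a wide range of levels. In shNT cells the order by mean FPKM was DUSP5 (146 ± 4.04), DUSP1 (140 ± 1.57), DUSP4 (23.3 ± 0.563), DUSP6 (18.6 ± 0.654), SPRED2 (12.0 ± 0.415), SPRY1 (7.68 ± 0.321), SPRED1 (6.68 ± 0.085), DUSP2 (4.59 ± 0.427), DUSP10 (0.496 ± 0.054) and SPRY2 (0.031 ± 0.021), each with the SD of 3 libraries. No neighbours in that order overlapped in their range over libraries, although DUSP5 at 142.7 to 150.4 and DUSP1 at 137.9 to 141.0 came close. In shPRKCN cells DUSP5 led at 215 ± 2.55 FPKM and DUSP1 followed at 49.9 ± 0.443 FPKM (SD, n = 3). SPRED1 moved ahead of SPRED2 and DUSP2 ahead of SPRY1, and again no neighbours overlapped.

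The phosphatase sum changed less than its makeup. The 6 DUSP members summed to 332 ± 3.66 FPKM in shNT and 313 ± 2.29 FPKM in shPRKCN libraries (SD, n = 3). DUSP1 supplied 42.0% ± 0.469 of that sum in shNT and 15.9% ± 0.204 in shPRKCN libraries. DUSP5 supplied 43.9% ± 0.858 and 68.5% ± 0.397 (SD, n = 3). The FPKM of DUSP5 over that of DUSP1 was 1.05, 1.01 and 1.08 in shNT libraries and 4.27, 4.39 and 4.24 in shPRKCN libraries. The transcript of the ERK-specific phosphatase and that of the broader one were thus near-equal in every control, and the former was far higher in every knockdown library. FPKM is relative to all counted reads of a library, so the sum is a share and not an amount per cell.

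**Figure D4:**
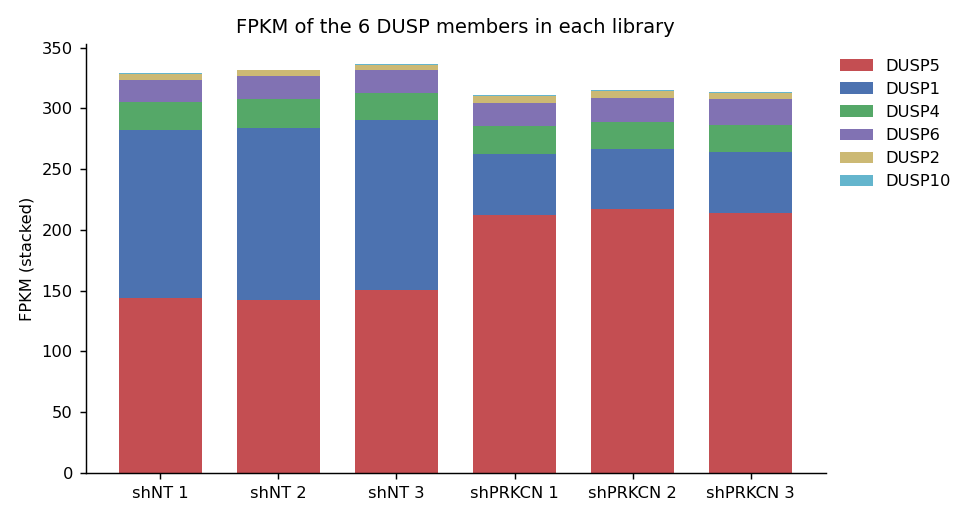
FPKM on the y axis of the 6 DUSP members, stacked for each of the 6 libraries. The DUSP1 block (blue) shrinks from about 140 to about 50 FPKM and the DUSP5 block (red) grows from about 146 to about 215 FPKM, while the stacks stay between 311 and 336 FPKM.

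In their annotated 3′ UTRs the members differed in AU-rich pentamers (ATTTA), a feature of short-lived transcripts. The longest 3′ UTR of a complete coding transcript in GENCODE 29 (GRCh38) was taken for all 10. DUSP1 held 4 pentamers in 672 bases, or 5.95 per kb, more than in 94.9% of the tested genes with a 3′ UTR, whose median was 1.72 per kb. The median 3′ UTR of those genes was longer, at 1397 bases. By number alone, the 4 of DUSP1 were more than in 59.95% of those genes, and the 24 of SPRED1 more than in 97.9%. DUSP2 had 4.57 per kb, SPRED1 4.30 per kb with 24 pentamers in 5585 bases, SPRY1 3.31, DUSP10 3.04 and SPRY2 2.56 per kb. SPRED2 had 1.89, DUSP4 1.51 and DUSP6 0.495 per kb, and DUSP5 had 0 in 1118 bases. The longer element TTATTTATT was found in DUSP1 at 2 positions and in DUSP4 at 1, and 9.39% of the tested genes hold it.

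Of the other MAPK phosphatases, Sprouty and SPRED genes, DUSP16, a phosphatase of JNK and p38, went from 44.0 ± 2.85 to 34.7 ± 1.93 CPM (SD, n = 3), a log2 fold change of −0.34 (SE 0.056, edgeR BH-adjusted p = 3.7e-07) under the fold limit. DUSP7, a cytoplasmic relative of DUSP6, had a log2 fold change of 0.017 (SE 0.080, edgeR BH-adjusted p = 0.876). DUSP8, DUSP9, SPRY3, SPRY4 and SPRED3 were too low to test, with at most 16 counts in any library. DUSP8 had 4, 16 and 8 counts in shNT libraries and 1 in each shPRKCN library. SPRY4, often a sensitive ERK target in other cells, had 8, 3 and 10 counts in shNT against 7, 12 and 14 in shPRKCN libraries.

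Other inhibitors of RAS and ERK also moved both ways. Of 17 tested, 4 were called higher and 3 lower, where 6.15% of all tested genes were called higher and 10.6% lower. The median log2 fold change of the 17 was 0.18. NF1, which encodes the neurofibromin that SPRED proteins bind, went from 47.6 to 27.2 CPM, a log2 fold change of −0.81 (SE 0.056). RASA1, another protein that turns RAS off, went from 111 to 222 CPM, a log2 fold change of 1.00 (SE 0.038). RASAL1 (1.11 on the log2 scale) and RASAL2 (−0.76) belong to the same kind of protein. The other calls, named after their values were seen, were IL17RD (0.70) and RASAL3 (0.61) higher and CBL (−0.65), a ubiquitin ligase for receptors, lower. SPRED2 and its partner NF1 were thus both lower, while SPRED1 was higher.

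In the cascade that these members act on, 1 of 16 tested genes from RAS to ERK was called lower (NRAS, −0.64) and 0 higher, against 10.6% and 6.15% of all tested genes, and the median log2 fold change was −0.047. By the adjusted p alone 5 were higher and 6 lower, against 26.5% and 27.8% of all tested genes. Named after their values were seen, MAPK3 (0.26 on the log2 scale), which encodes an ERK kinase, was higher and MAP2K1 (−0.46), which encodes a MEK kinase, was lower, both under the fold limit. Of 13 tested genes of the JNK and p38 cascade, MAPK11 (1.20) and MAPK12 (0.64), which encode p38 kinases, were called higher and MAP2K6 (−0.71), which activates p38, lower. The other p38 genes, MAPK13 (−0.047) and MAPK14 (−0.22), and MAP2K3 (0.48), all named after their values were seen, were not called.

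Upstream, 1 of 9 tested receptor genes was called lower and 0 higher. It was FGFR1, named after its values were seen because of its low mean of 22.2 counts, at −1.20 on the log2 scale. By the adjusted p alone 2 receptor genes were higher and 3 lower (26.5% and 27.8% of all tested genes). IL6R and IL6ST, which encode the subunits of the interleukin-6 receptor and were also named afterwards, had log2 fold changes of 0.55 (SE 0.033) and −0.46 (SE 0.036), both under the fold limit. Of 10 tested adaptors and exchange factors, 1 was called lower, GAB2 (−1.44), and 0 higher. Of 16 ERK effector kinases and transcription factors, 2 were called lower, RPS6KA5 (−1.16) and ELK4 (−0.82), and 0 higher. Over all tested genes 10.6% were called lower and 6.15% higher. The other medians were −0.13 for receptors, −0.0025 for adaptors, 0.00033 for effectors and 0.21 for the JNK and p38 genes.

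Of 10 tested transcripts used elsewhere as ERK output, 5 were called lower and 1 higher, where 10.6% of all tested genes were called lower and 6.15% higher, and the median was −0.55 on the log2 scale. EGR1 (−2.19, SE 0.332), PLAUR (−1.27), CCND1 (−1.10) and ETV5 (−0.74) fell, with means of 55.8 to 145 counts. The size of the EGR1 fall was uncertain, with 72, 75 and 127 counts in shNT and 25, 33 and 3 in shPRKCN libraries. With single libraries left out it ran from −2.73 to −1.67. MYC, with a mean of 21124 counts and named after its value was seen, had a log2 fold change of 0.12 (SE 0.033). The other calls of this list, also named afterwards and low, were IER3 (−1.40, mean of 37 counts) and EPHA4 (1.37, mean of 17.7 counts, with overlapping groups). Of 17 tested immediate-early genes, the class to which DUSP1 belongs, 10 were called lower and 0 higher, with a median of −1.40. EGR1 is counted in both lists. FOSB (−3.12), FOS (−2.67) and JUN (−2.41) fell further than DUSP1. DUSP1, at −1.50, thus lay close to the median of this list, and 3 genes of the list, like DUSP4 and DUSP6, did not pass an adjusted p of 0.05.

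**Figure D5:**
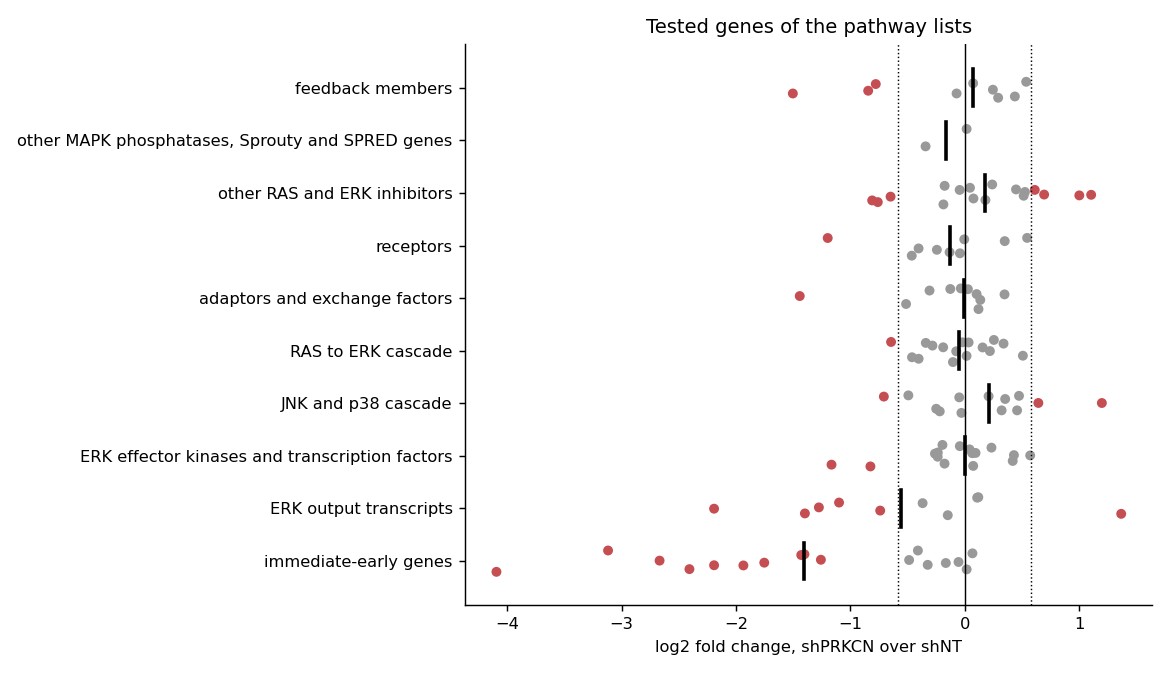
Log2 fold change, shPRKCN over shNT, on the x axis for every tested gene of the pathway lists, with 1 row per list, called genes in red, other genes in grey and the median as a black bar. The immediate-early list is shifted to the left with a median of −1.40, and the feedback members spread from −1.50 to 0.54.

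Over the 6 libraries, the genes whose log2 CPM followed DUSP1 most closely were ENO2 (Pearson r = 0.9999), a glycolytic enzyme, RRM2 (r = 0.9998), a subunit of ribonucleotide reductase, and RGS1 (r = 0.9998), a regulator of G protein signaling. Their log2 fold changes were −1.39, −1.96 and −1.54. The libraries form a low and a high cluster by group, and among 11659 genes averaging 50 counts or more, 609 had r above 0.99, so that these values describe the split between groups.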

How the data were processed

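RNA sequencing measured 6 MM.1S libraries. The authors deposited raw read counts per gene, with 1 column per library, and FPKM values for the same genes, which divide each count by the library total and 1 length per gene. The submitters' processing notes name FastQC, HISAT2, StringTie and GRCh38.p14. The annotation and strandedness are not given in the sources used here, so reads of overlapping genes may be shared. The quasi-likelihood test of edgeR 4.0.16 in R 4.3.3 was run on TMM-normalized counts after filterByExpr (13971 genes). The SE is the log2 fold change divided by the square root of F, and 95% intervals use the test's t distribution. FPKM was used to compare levels between genes. Alternatives used DESeq2 1.42.0, limma 3.58.1 on FPKM at the log2 scale with a pseudocount of 1 or 0.1, other scalings and filters, the replicate number as a block, and single libraries left out. The members and lists were chosen with earlier results of these data known, and the motifs and AU-rich elements after the counts were seen. Named were all members, the other DUSP, Sprouty and SPRED genes of the pathway, and at most 4 called genes per list with a mean of at least 50 counts. Libraries of a group differed by more than sampling noise (chi-square per degree of freedom 3.48 to 5.01). Some genes of the lists are counted but not reported by name here. The steps were tested on simulated data.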

Additional observations from a re-analysis of the deposited data

How the results depend on the processing

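None of the 9 members tested changed sign under any of the 15 alternatives run for each log2 fold change. DUSP1, SPRY1 and SPRED2 were called lower in all of them and with both other fold rules. Dropping the fold limit gave 4 higher members, 3700 higher and 3877 lower genes over the table, and 30 higher and 50 lower genes of the pathway lists. glmTreat against the limit gave 339 higher and 821 lower genes, and 3 higher genes of the lists. limma on log2(FPKM + 1), which compresses low genes, gave 315 higher and 648 lower genes, and 10 lower genes of the lists. DUSP2 missed 0.05 with limma on log2(FPKM + 1) (adjusted p = 0.085) and on log2(FPKM + 0.1) (adjusted p = 0.066), and DUSP10 did too (adjusted p = 0.059 and 0.124, limma). RASAL2 missed it on log2(FPKM + 0.1) (−0.44, limma adjusted p = 0.060). With single libraries left out, DUSP7 ran from −0.059 to 0.081, at −0.059 without shNT 1 and −0.038 without shPRKCN 2. Same-numbered libraries did not deviate together (r = −0.096, −0.012 and −0.040 over 11659 genes), and no library correlated best with its own number. With the replicate number as a block 854 genes were higher and 1463 lower, 0 members higher and 3 lower, and no call of a member changed. Depth limits SPRY2, and the fold changes of DUSP2 and DUSP10, which rest on 141 to 435 counts per library.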

Other observations

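The count table also lists 16 dual-specificity phosphatase genes that are not among the members, described here as a set after their values were seen. The set includes DUSP7, DUSP8, DUSP9 and DUSP16, which are also reported above. Of the 12 tested, 1 was called higher and 0 lower (6.15% and 10.6% of all tested genes), and the median was −0.013 on the log2 scale. By the adjusted p alone 3 were higher and 3 lower (26.5% and 27.8% of all tested genes), with DUSP16 again among the lower. DUSP26 was the one called, with 5, 7 and 1 counts in shNT and 26, 26 and 17 in shPRKCN libraries, a log2 fold change of 2.34 (SE 0.552, edgeR BH-adjusted p = 2.3e-04) that rests on few control reads. DUSP3, a small phosphatase known to act on ERK and JNK, went from 13.7 ± 0.946 to 9.97 ± 0.506 CPM (SD, n = 3), a log2 fold change of −0.46 (SE 0.095). DUSP22, the most abundant of these by counts, measured 182 ± 2.56 and 177 ± 7.54 CPM (SD, n = 3), with overlapping libraries and a 95% interval of −0.12 to 0.032 for its log2 fold change.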
